A study of Mus musculus with 18 samples.

Results

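The genes described here encode proteins that bind RNA and steer its splicing, stability and transport. They were chosen by name from the first column of each deposited table, as 11 SR protein genes (Srsf), 20 heterogeneous nuclear ribonucleoprotein (hnRNP) genes (Hnrnp), 3 Rbfox, 3 Mbnl, 3 Ptbp, 4 Elavl, 2 Nova and 6 Celf genes. The rule found 52 of the 24015 rows in each table, in 8 families. Of these, 51 had an adjusted p in all 3 tables, and Mbnl3, a muscleblind gene with a mean of 3.07 normalized counts in the shRNA-Ctrl table, had none. RNA was sequenced from microdissected dentate gyrus, the hippocampal field of granule neurons, of adult C57BL/6 mice aged 8 weeks, in 18 libraries that each came from 1 animal. The groups shRNA-Ctrl_E1, shRNA-Ctrl_E0, shRNA-cFos_E1 and shRNA-cFos_E0 carried a control hairpin or one named for c-Fos, and cFos_OE and EYFP_OE overexpressed c-Fos or a yellow fluorescent protein, with 3 libraries each. The deposited comparisons name E0 as sham, and the stated topic is the response of dentate gyrus to neuronal activation. No source used here gives the stimulus, the time after it, the vector, the promoter that drove the constructs or the share of cells that carried them.

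SR proteins bind enhancer sequences in exons through RNA recognition motifs and recruit the spliceosome through domains rich in arginine and serine. The hnRNPs coat new transcripts and often oppose them, so that the balance of both groups sets whether an exon is kept. Many Rbfox, Nova, Elavl and Celf proteins are enriched in neurons, where they direct exons of ion channels, receptors and synaptic proteins. Ptbp1 represses neuronal exons in other cells and gives way to Ptbp2 as neurons form. Many SR genes also carry exons that send their own transcript to decay. Counts per gene give the amount of transcript and not which exons it held, so splicing itself was not measured here.

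The values are the authors' own comparisons: a mean normalized count per gene, a log2 fold change with its standard error (SE) and an adjusted p, called here under 0.05. Values per library were not analysed here, so levels per group are those implied by the mean count and the fold change, with no error of their own. Standard errors of the members ran from 0.05 to 0.20 with shRNA-Ctrl, from 0.07 to 0.18 with shRNA-cFos and from 0.06 to 0.16 with overexpression. Fos, the targeted gene, had a log2 fold change of 3.36 ± 0.14 at E1 with shRNA-Ctrl, 2.33 ± 0.15 at E1 with shRNA-cFos and 3.34 ± 0.20 with overexpression in the authors' deposited tables. Prox1, the factor that specifies granule neurons, had mean normalized counts of 2740, 1760 and 2720 in those 3 tables. The tables were normalized separately, so mean counts cannot be compared between them. The members are abundant transcripts: their median mean count lay above that of 90.6% of all genes tested with shRNA-Ctrl, 89.7% with shRNA-cFos and 90.2% with overexpression.

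With the control hairpin, SR protein genes were the family with the most increases at E1, while Rbfox1, Rbfox3, Nova2 and Celf5, all genes of neuronal splicing regulators, were lower. Of the 51 members tested, the authors' deposited table has 17 that rose and 4 that fell (DESeq2, adjusted p), or 33.3% and 7.84%. Over all genes tested 33% passed, 16.8% higher and 16.2% lower. The median log2 fold change was 0.06 over the members and 0.01 over all genes tested. The largest rise among the members was 1.71-fold, for Srsf7.

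**Figure D1:**
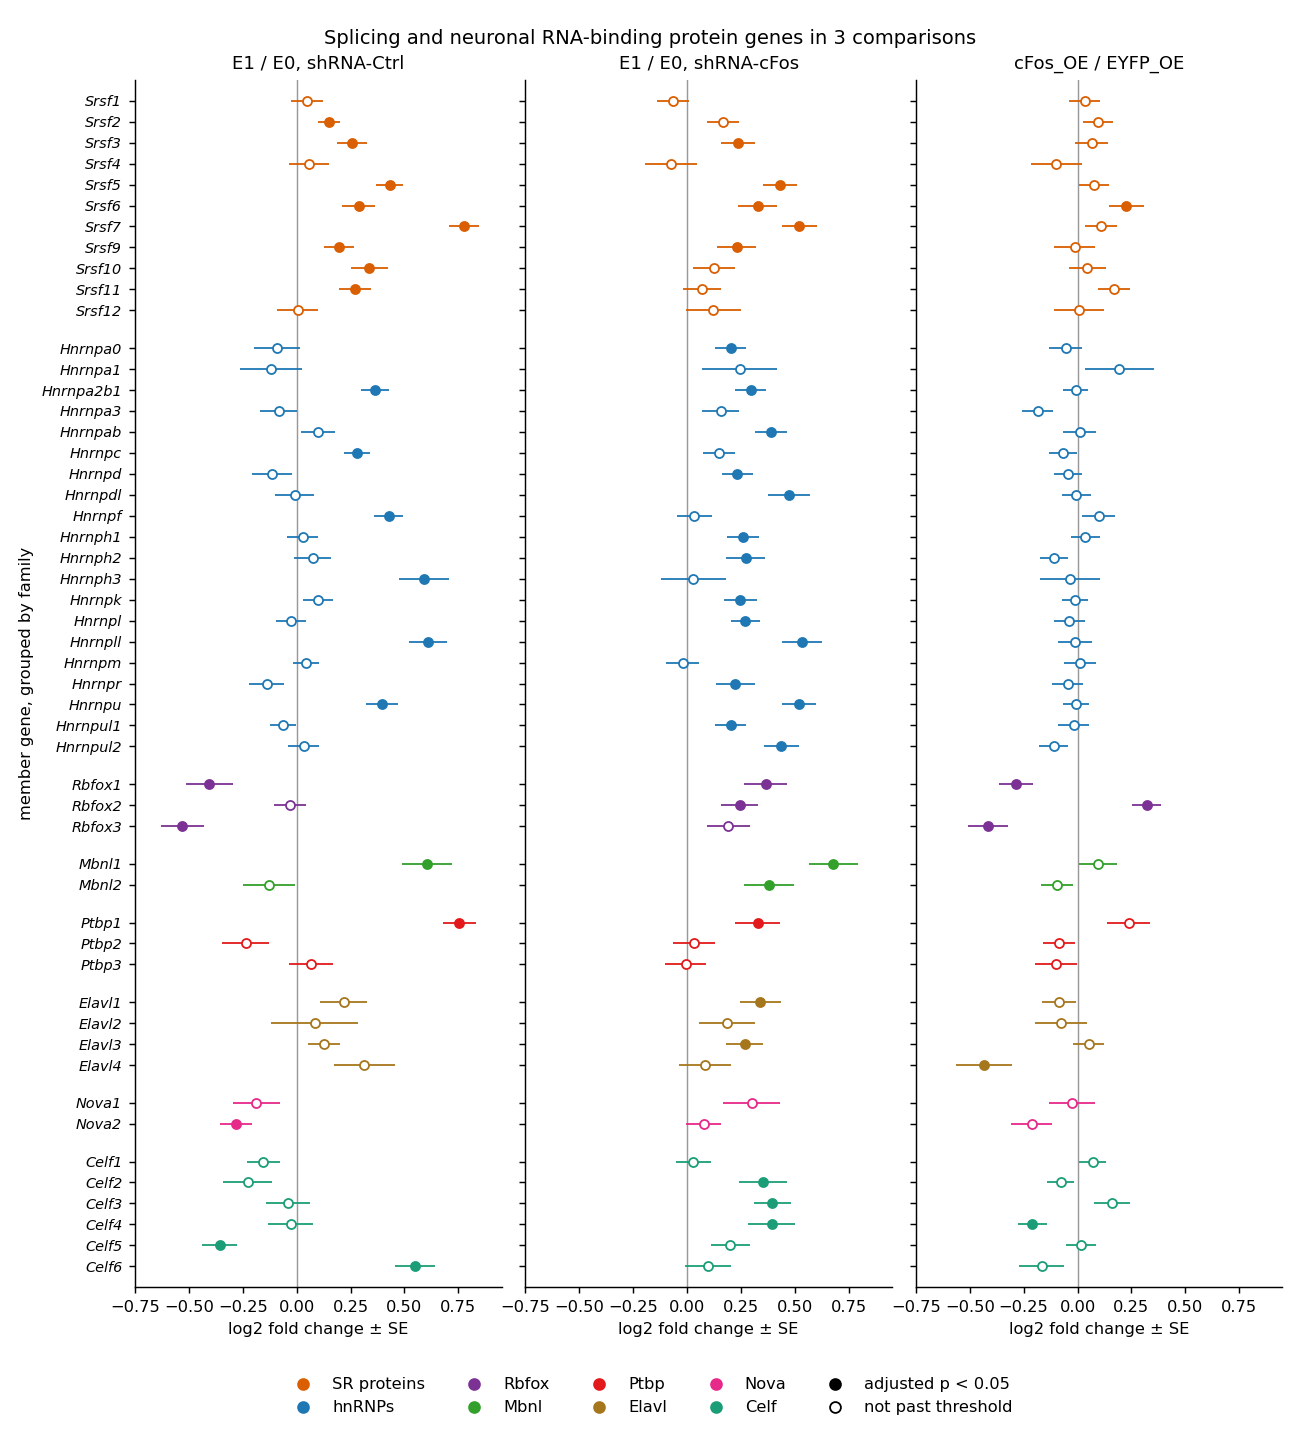
Log2 fold change ± SE from the authors' deposited tables for the 51 members tested, one row per gene and coloured by family, in the 3 comparisons. Filled points pass an adjusted p of 0.05. SR genes lie at or right of 0 with shRNA-Ctrl, nearly all members lie right of 0 with shRNA-cFos, and most members lie near 0 with overexpression.

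Among the SR genes, 8 of 11 rose with shRNA-Ctrl and 0 fell (DESeq2; 0 lower also at an unadjusted p under 0.05), with a median of 0.26. With a fold minimum of 1.2 the count was 5 of 11. Srsf7, whose protein binds exonic enhancers and also joins mRNA export, stood at an implied 2903 normalized counts at E1 and 1680 at E0. Its log2 fold change was 0.78 ± 0.07 in the authors' deposited table (adjusted p = 6.6e-27). Srsf5 stood at an implied 5966 at E1 and 4408 at E0, with 0.43 ± 0.06 in the authors' deposited table (adjusted p = 1.7e-10). These are the largest changes of the family, and each fold change exceeds 0 by several times its SE. Smaller rises were those of Srsf10 (0.34 ± 0.09), which represses splicing when it loses phosphate after heat shock, and Srsf6 (0.29 ± 0.08) in the authors' deposited table. Srsf11 (0.27 ± 0.07), Srsf3 (0.26 ± 0.07), Srsf9 (0.20 ± 0.07) and Srsf2 (0.15 ± 0.05) also rose in the authors' deposited table. Srsf1 (0.05 ± 0.07), Srsf4 (0.06 ± 0.09) and Srsf12 (0.00 ± 0.10) did not pass in the authors' deposited table.

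Of the 20 hnRNP genes, 6 rose and 0 fell with shRNA-Ctrl (DESeq2; 6 and 0 at an unadjusted p under 0.05), with a median of 0.04. Hnrnpll, which drives a splicing switch in activated lymphocytes, stood at an implied 1905 at E1 and 1235 at E0, and the authors' deposited table gives 0.61 ± 0.09 on the log2 scale. Hnrnph3 (0.59 ± 0.12), Hnrnpf (0.43 ± 0.07), the nuclear scaffold gene Hnrnpu (0.40 ± 0.08), Hnrnpa2b1 (0.36 ± 0.07), whose protein carries RNA into dendrites, and Hnrnpc (0.28 ± 0.06) followed in the authors' deposited table. The other 14 ran from -0.14 for Hnrnpr to 0.10 in the authors' deposited table.

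The smaller families split by member with shRNA-Ctrl. Ptbp1, the repressor of neuronal exons, stood at an implied 1068 at E1 and 626 at E0, and the authors' deposited table gives 0.76 ± 0.08 (adjusted p = 3.7e-20). Its neuronal counterpart Ptbp2 was at -0.24 ± 0.11 and Ptbp3 at 0.07 ± 0.10 in the authors' deposited table, and neither passed. Mbnl1, a muscleblind gene, stood at an implied 1714 at E1 and 1108 at E0 (0.60 ± 0.12), while Mbnl2 was at -0.13 ± 0.12 in the authors' deposited table. Rbfox3, whose protein is the neuronal marker NeuN, stood at an implied 4842 at E1 and 7074 at E0, and the authors' deposited table gives -0.53 ± 0.10 (adjusted p = 2e-06). Rbfox1 stood at an implied 8147 at E1 and 10892 at E0, with -0.40 ± 0.11, and Rbfox2, which other tissues also make, was at -0.03 ± 0.07 in the authors' deposited table. Rbfox3 and Rbfox1 were thus lower at E1, and Rbfox2 did not pass.

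Nova2, a splicing regulator first known from a human autoimmune disease, fell with shRNA-Ctrl, to an implied 2224 at E1 against 2711 at E0 (-0.28 ± 0.07), and Nova1 was at -0.19 ± 0.11 in the authors' deposited table. Within the Celf genes, which bind GU-rich RNA, Celf5 fell (-0.36 ± 0.08) and Celf6 rose (0.55 ± 0.09) in the authors' deposited table. Implied levels were 4380 at E1 and 5638 at E0 for Celf5, and 859 at E1 and 582 at E0 for Celf6. Celf2 (-0.23 ± 0.11), Celf1 (-0.15 ± 0.08), Celf3 (-0.04 ± 0.10) and Celf4 (-0.03 ± 0.10) did not pass in the authors' deposited table. The Elavl genes, whose Hu proteins stabilise AU-rich mRNA, ran from 0.08 ± 0.20 for Elavl2 to 0.31 ± 0.14 for Elavl4, with Elavl1 (0.22 ± 0.11) and Elavl3 (0.13 ± 0.07) between, in the authors' deposited table. None of the 4 Elavl genes passed (DESeq2; 2 higher at an unadjusted p under 0.05).

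With the hairpin named for c-Fos, hnRNP genes gave the most increases at E1, with 14 calls, and every call among the members was an increase. Of the 51 members tested, the authors' deposited table has 29 that rose and 0 that fell (DESeq2; 33 higher and 0 lower at an unadjusted p under 0.05). The member share of 56.9% stands beside 28.1% of all genes tested that passed, 16.3% higher and 11.7% lower. The abundance of the members bears on this count. Among all genes with a mean normalized count of at least 1000, a limit chosen after the values were seen, the authors' deposited table has 36.4% higher and 7.14% lower at E1 with shRNA-cFos, and of the members above that limit 65% rose. The same abundant genes had a median log2 fold change of 0.12 with shRNA-cFos, against 0.25 for the members among them. With shRNA-Ctrl the abundant genes were 21% higher and 20.1% lower, with a median of -0.01. Implied levels summed over all genes tested were also higher at E1 with shRNA-cFos, at 15285290 against 13496573 at E0. With shRNA-Ctrl these sums were 19709697 at E1 and 19159360 at E0. The part of this shift in the member counts was not tested.

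Of the SR genes 5 of 11 rose with shRNA-cFos, again led by Srsf7 and Srsf5, and 3 of 11 did so with a fold minimum of 1.2 or at an adjusted p under 0.01. Srsf7 stood at an implied 1871 at E1 and 1293 at E0 (0.52 ± 0.08), and Srsf5 at 4028 at E1 and 2969 at E0 (0.43 ± 0.08) in the authors' deposited table. Srsf6 (0.33 ± 0.09), Srsf3 (0.24 ± 0.08) and Srsf9 (0.23 ± 0.09) also rose in the authors' deposited table, so all 5 were also among the 8 that rose with shRNA-Ctrl. The values of the 6 others were 0.17 ± 0.07 for Srsf2, 0.13 ± 0.10 for Srsf10, 0.12 ± 0.13 for Srsf12, 0.07 ± 0.09 for Srsf11, -0.07 ± 0.07 for Srsf1 and -0.08 ± 0.12 for Srsf4 in the authors' deposited table.

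Of the hnRNP genes 14 of 20 rose with shRNA-cFos and 0 fell (DESeq2; 15 and 0 at an unadjusted p under 0.05), with a median of 0.25. With a fold minimum of 1.2 the count was 8 of 20, without Hnrnpa0, Hnrnpd, Hnrnph1, Hnrnpk, Hnrnpr and Hnrnpul1. Hnrnpll (0.53 ± 0.09), which also led with shRNA-Ctrl, and Hnrnpu (0.52 ± 0.08) led in the authors' deposited table, with Hnrnpu at an implied 8824 at E1 and 6114 at E0. Hnrnpdl (0.47 ± 0.10), Hnrnpul2 (0.44 ± 0.08), Hnrnpab (0.39 ± 0.08), which takes part in dendritic mRNA transport, and Hnrnpa2b1 (0.29 ± 0.07) came next in the authors' deposited table. Hnrnph2 (0.27 ± 0.09), Hnrnpl (0.27 ± 0.07), Hnrnph1 (0.26 ± 0.07), Hnrnpk (0.25 ± 0.08) and Hnrnpd (0.23 ± 0.07), whose product is known as AUF1, also rose in the authors' deposited table. The smallest rises were those of Hnrnpr (0.22 ± 0.09), Hnrnpa0 (0.20 ± 0.07) and Hnrnpul1 (0.20 ± 0.07) in the authors' deposited table. Hnrnpc (0.15 ± 0.08), Hnrnpf (0.03 ± 0.08) and Hnrnph3 (0.03 ± 0.15), which rose with shRNA-Ctrl, did not pass here in the authors' deposited table. Hnrnpa1, Hnrnpa3 and Hnrnpm passed in no comparison. The mean of Hnrnpa1 was only 134 normalized counts with shRNA-Ctrl, and since this gene is known for many processed pseudogenes its reads may have been split among copies, so its values are uncertain.

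Among the smaller families Mbnl1 had the largest rise of all members with shRNA-cFos, at an implied 1199 at E1 and 731 at E0 (0.68 ± 0.11 in the authors' deposited table). Mbnl2 (0.38 ± 0.11), Celf3 (0.39 ± 0.09), Celf4 (0.39 ± 0.11) and Celf2 (0.35 ± 0.11) also rose in the authors' deposited table. Rbfox1 rose, at an implied 7436 at E1 and 5723 at E0 (0.36 ± 0.10), as did Rbfox2 (0.24 ± 0.08), while Rbfox3 was at 0.19 ± 0.10 and did not pass in the authors' deposited table. Ptbp1 rose less than with shRNA-Ctrl, at an implied 677 at E1 and 534 at E0 (0.33 ± 0.10), and Ptbp2 (0.03 ± 0.10) and Ptbp3 (-0.01 ± 0.10) did not pass in the authors' deposited table. Elavl1 (0.34 ± 0.10) and Elavl3 (0.27 ± 0.09) rose, and Elavl2 (0.18 ± 0.13) and Elavl4 (0.08 ± 0.12) did not pass in the authors' deposited table. Nova1 (0.30 ± 0.13), Nova2 (0.08 ± 0.08), Celf5 (0.20 ± 0.09), Celf6 (0.10 ± 0.11) and Celf1 (0.03 ± 0.08) did not pass in the authors' deposited table.

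**Figure D2:**
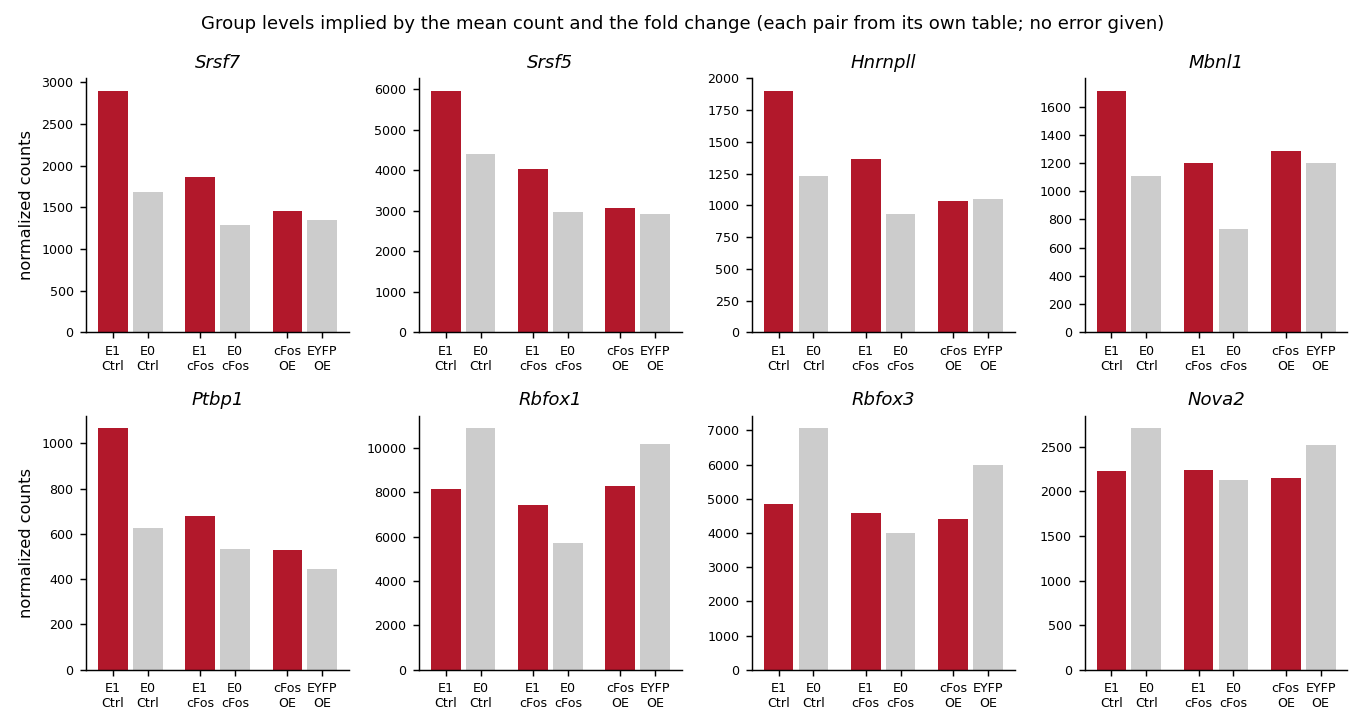
Implied group levels in normalized counts for 8 members, from the deposited mean count and the fold change with its shrinkage removed, with E1 (red) beside E0 (grey) for each hairpin and cFos_OE (red) beside EYFP_OE (grey). The pairs come from separately normalized tables and can be compared only within a pair, and no error is drawn. Rbfox3 has 4842 at E1 against 7074 at E0 with shRNA-Ctrl, and 4581 against 3991 with shRNA-cFos.

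To compare the hairpins directly, the shRNA-Ctrl value of each gene was subtracted from its shRNA-cFos value (2-sided normal p with Benjamini-Hochberg adjustment over 14386 genes). Of the 51 members, 16 had a higher response with shRNA-cFos and 4 a lower one, a share of 39.2% against 23.8% of all genes tested. Among abundant genes, with a mean of 1000 or more in each of the shRNA tables, 36% of all genes and 40% of the members differed. Of all these abundant genes 27.4% had a higher E1 value with shRNA-cFos and 8.56% a lower one (median difference 0.11), so higher responses outnumbered lower ones among them too. At an adjusted p under 0.01 the members called were 11, with 8 higher, and the hnRNP genes with a higher response were 2 in place of 7. Rbfox1 had the largest difference, 0.77 ± 0.15 (adjusted p = 4.8e-06), followed by Rbfox3 with 0.72 ± 0.14 (adjusted p = 1.1e-05), both computed from the authors' deposited tables. Rbfox1 was lower at E1 with one hairpin and higher with the other, and is the one member that passed in opposite directions with the hairpins.

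The other genes with a higher response with shRNA-cFos were Nova, Celf, Mbnl and hnRNP genes. Both Nova genes were among them, with 0.49 ± 0.17 for Nova1 and 0.36 ± 0.11 for Nova2, computed from the authors' deposited tables. So were 4 of 6 Celf genes, namely Celf2 (0.58 ± 0.16), Celf5 (0.56 ± 0.12), Celf3 (0.43 ± 0.13) and Celf4 (0.42 ± 0.15), and Mbnl2 (0.51 ± 0.17), computed from the authors' deposited tables. Of the hnRNP genes 7 had a higher response, from 0.27 ± 0.10 for Hnrnpul1 to 0.48 ± 0.13 for Hnrnpdl, computed from the authors' deposited tables. The 4 members with a lower response were Hnrnph3 (-0.56 ± 0.19), Celf6 (-0.45 ± 0.14), Ptbp1 (-0.43 ± 0.13) and Hnrnpf (-0.39 ± 0.11), computed from the authors' deposited tables. All 4 had risen with shRNA-Ctrl.

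For the SR genes no difference passed: 0 of 11 (normal test as above; 1 lower, Srsf7, and 0 higher at an unadjusted p under 0.05), with a median difference of -0.02. A p that misses the threshold does not show equal responses, so the 95% normal intervals are given. They ran from -0.20 to 0.19 for Srsf5, from -0.23 to 0.18 for Srsf3, from -0.19 to 0.27 for Srsf6 and from -0.16 to 0.19 for Srsf2. For Srsf7 the difference was -0.26 ± 0.11 with an interval from -0.47 to -0.05 (adjusted p = 0.061). The Elavl genes also gave 0 of 4 (0 at an unadjusted p under 0.05), with a wider interval of -0.37 to 0.57 for Elavl2. Rbfox2 (0.27 ± 0.11, adjusted p = 0.059, and 0.048 after centring on the median of all genes) and Ptbp2 (0.27 ± 0.15, adjusted p = 0.18) did not pass, computed from the authors' deposited tables.

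**Figure D3:**
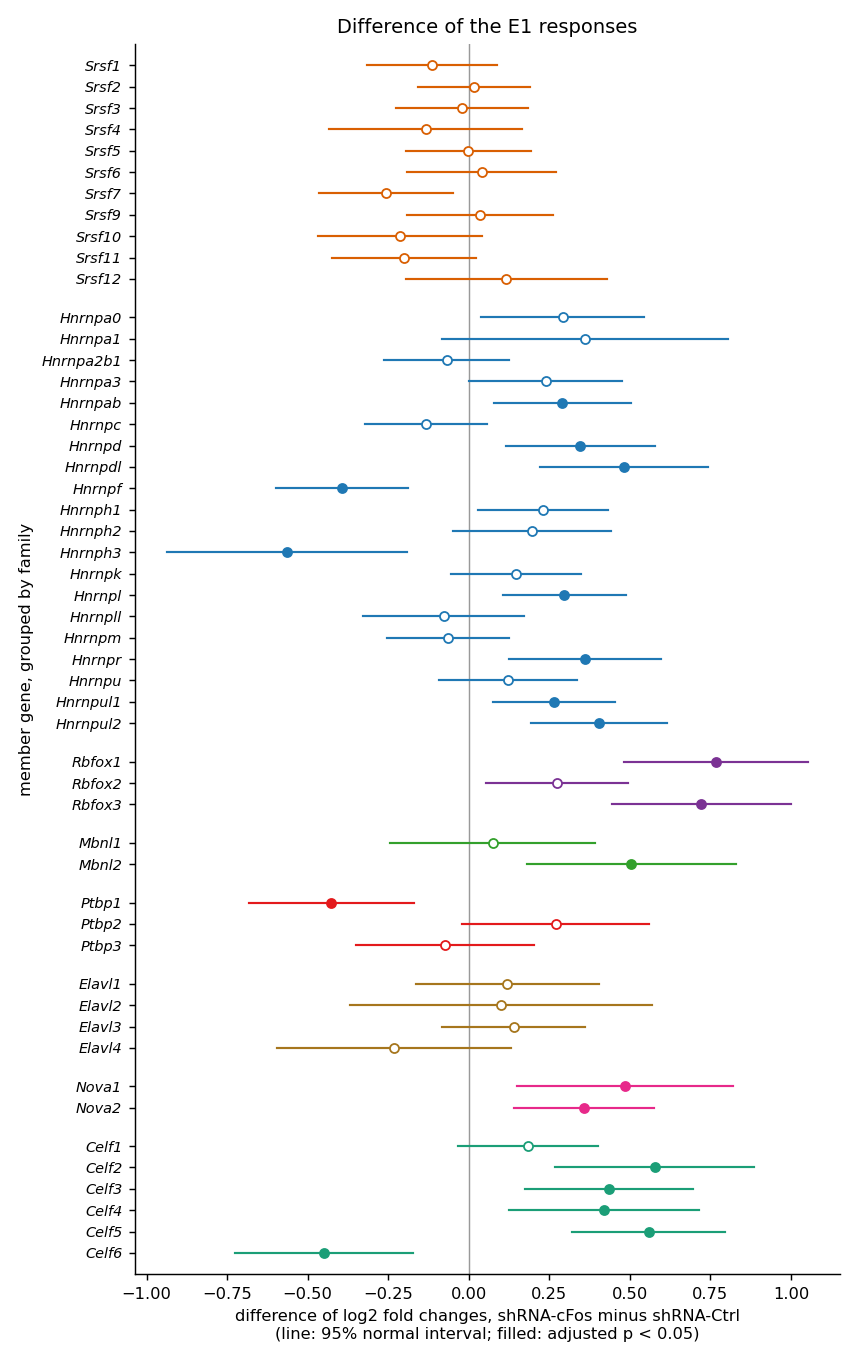
Difference of the E1 log2 fold changes, shRNA-cFos minus shRNA-Ctrl, per member with its 95% normal interval, coloured by family as in the plot of the 3 comparisons and filled where the adjusted p is under 0.05. The 11 SR genes are open points from -0.26 for Srsf7, whose interval lies below 0, to 0.12 for Srsf12. Rbfox1 (0.77) and Rbfox3 (0.72) lie farthest to the right.

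**Figure D4:**
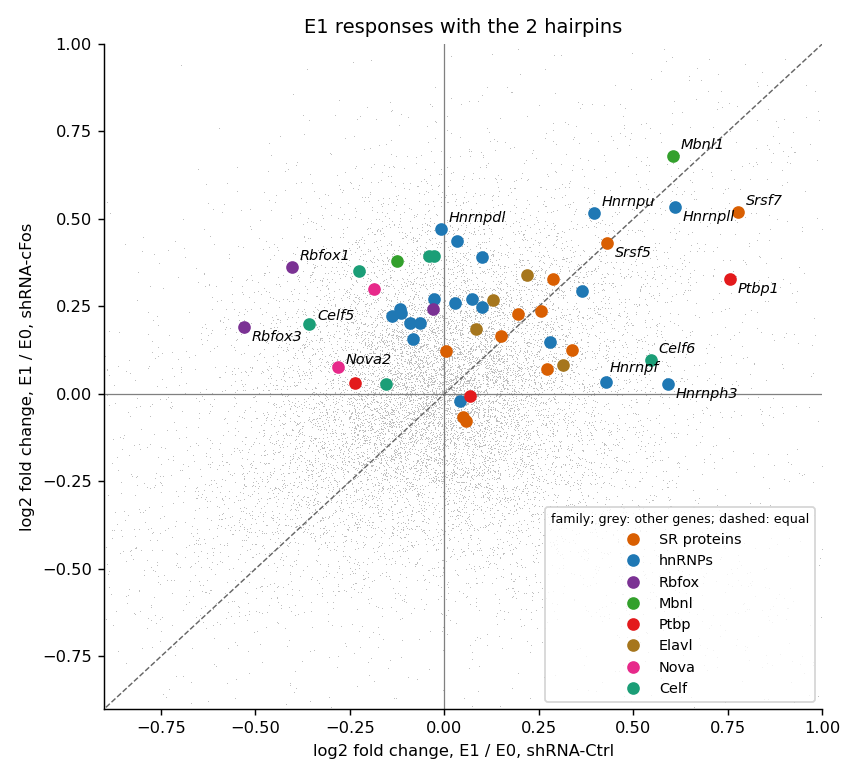
Log2 fold change at E1 with shRNA-Ctrl (horizontal) and with shRNA-cFos (vertical) for the 51 members by family, over all genes tested in both tables (grey). The dashed line marks equal responses. Srsf5 lies on the line, whereas Rbfox1 and Rbfox3 lie in the upper left part.

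The calls of the arms overlapped in part. Both hairpins gave a rise for 10 members, which is 58.8% of those higher with shRNA-Ctrl and 34.5% of those higher with shRNA-cFos. These 10 were Srsf3, Srsf5, Srsf6, Srsf7, Srsf9, Hnrnpa2b1, Hnrnpll, Hnrnpu, Mbnl1 and Ptbp1. The overlap is given without the same share over all genes tested, so it is not read as particular to the members. Across the 51 members the Spearman correlation of the responses was 0.14, and 0.18 over 14341 genes tested in all 3 tables. These arms share no libraries, while all points of a table share its 6 libraries.

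Cell type markers were also counted in these tables, and fewer cells of a type and less RNA per cell cannot be told apart in tissue RNA. Of 16 granule neuron markers, a list that holds Rbfox3 itself, 2 were higher and 10 lower at E1 with shRNA-Ctrl, and 8 higher and 1 lower with shRNA-cFos. Their summed implied level was 57020 at E1 and 75039 at E0 with shRNA-Ctrl, and 50511 at E1 and 34607 at E0 with shRNA-cFos. Slc17a7 weighs most in the sums of this list. Its mean normalized count was 28500 with shRNA-Ctrl, 19500 with shRNA-cFos and 26600 with overexpression. The median log2 fold change of the list, where each gene counts alike, was -0.43 with shRNA-Ctrl and 0.21 with shRNA-cFos. Over all genes tested the sum was 19709697 at E1 and 19159360 at E0 with shRNA-Ctrl. With shRNA-cFos it was 15285290 at E1 and 13496573 at E0. Of 10 microglial markers 9 were higher and 0 lower with shRNA-Ctrl, with sums of 13999 at E1 and 10740 at E0, and 1 was higher and 6 lower with shRNA-cFos, with sums of 7826 at E1 and 9594 at E0. The astrocyte list of 10 had 2 higher and 0 lower with shRNA-Ctrl, and 5 higher and 2 lower with shRNA-cFos. The oligodendrocyte list of 10 had 2 higher and 1 lower with shRNA-Ctrl and 1 lower with shRNA-cFos, and the endothelial list of 10 had 4 higher and 0 lower with shRNA-Ctrl and 1 higher and 1 lower with shRNA-cFos. With shRNA-Ctrl the shares called were 75% of granule neuron, 90% of microglial, 20% of astrocyte, 30% of oligodendrocyte and 40% of endothelial markers. Of all genes tested 33% were called there. With shRNA-cFos the shares were 56.2%, 70%, 70%, 10% and 20% in the same order, against 28.1% of all genes tested. Every marker of these lists was tested, so no defining marker stood at 0. Their part in the Rbfox, Nova and Celf values was not tested.

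With c-Fos overexpression all 3 Rbfox genes passed, in both directions, and few other members did. Of the 51 members the authors' deposited table has 2 that rose and 4 that fell (DESeq2), a share of 11.8% against 13% of all genes tested, 7.1% of which were higher and 5.86% lower. This share is near that of all genes. Among genes with a mean of 1000 or more, 12.2% of the members and 21.3% of all genes passed. Rbfox2 rose, at an implied 5765 with cFos_OE and 4583 with EYFP_OE, and the authors' deposited table gives 0.32 ± 0.07 (adjusted p = 4.7e-05). Rbfox3 fell, at an implied 4409 with cFos_OE and 5982 with EYFP_OE (-0.42 ± 0.09, adjusted p = 0.00021), and Rbfox1 at 8282 with cFos_OE and 10183 with EYFP_OE (-0.29 ± 0.08, adjusted p = 0.0035) in the authors' deposited table. Rbfox1 and Rbfox3 were thus lower both with cFos_OE and at E1 with the control hairpin.

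The remaining calls with overexpression were Elavl4, encoding the neuronal protein HuD, Celf4 and Srsf6. Elavl4 fell, at an implied 463 with cFos_OE and 650 with EYFP_OE (-0.44 ± 0.13), Celf4 fell (-0.21 ± 0.07) and Srsf6 rose (0.23 ± 0.08, adjusted p = 0.042) in the authors' deposited table. The calls of Srsf6 and Celf4 were lost at a stricter threshold of 0.01 and with a fold minimum of 1.2, and that of Srsf6 also without the authors' filter on low counts. Of the 20 hnRNP genes 0 passed (DESeq2; 1 lower at an unadjusted p under 0.05), and they ran from -0.19 for Hnrnpa3 to 0.19 for Hnrnpa1 in the authors' deposited table. Srsf7 (0.11 ± 0.07), Srsf5 (0.08 ± 0.07), Mbnl1 (0.09 ± 0.09) and Ptbp1 (0.24 ± 0.10, adjusted p = 0.11), all higher at E1 with both hairpins, did not pass with overexpression in the authors' deposited table. Nova2 (-0.21 ± 0.10), Nova1 (-0.03 ± 0.11), Celf5 (0.02 ± 0.07) and Celf6 (-0.17 ± 0.11) did not pass either in the authors' deposited table. The 8 SR genes not yet named ran from -0.10 for Srsf4 to 0.17 for Srsf11 in the authors' deposited table, and the remaining Celf, Elavl, Mbnl and Ptbp genes from -0.10 for Ptbp3 to 0.16 for Celf3. Across the 51 members the Spearman correlation of these values with the E1 response was 0.36 for shRNA-Ctrl and 0.15 for shRNA-cFos, against 0.21 and -0.16 over 14341 genes. Granule neuron markers were 1 higher and 7 lower of 16 with overexpression, with summed implied levels of 56223 with cFos_OE and 64405 with EYFP_OE, and 6 of 10 microglial markers were higher, with sums of 11253 with cFos_OE and 8553 with EYFP_OE. Astrocyte markers had 3 higher and 2 lower, oligodendrocyte markers 1 lower with sums of 26296 with cFos_OE and 37263 with EYFP_OE, and endothelial markers 4 lower of 10 each, and the part of these cell types in the Rbfox values was not tested.

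Other genes of the splicing machinery were counted beside the same shares of all genes, 16.8% higher with shRNA-Ctrl and 16.3% higher with shRNA-cFos. Of 10 kinases and partners that act on SR proteins, 3 rose with shRNA-Ctrl (30%, with 0 lower, against 33% of all genes called in either direction), all of the Clk family that phosphorylates SR proteins in the nucleus: Clk4 (0.51 ± 0.09), Clk3 (0.32 ± 0.08) and Clk1 (0.25 ± 0.10) in the authors' deposited table. With shRNA-cFos 2 of 10 rose (20%), Clk4 (0.35 ± 0.10) and Dyrk1a (0.24 ± 0.08), in the authors' deposited table. Of 15 SR-related activators 5 rose with shRNA-Ctrl (33.3%) and 6 with shRNA-cFos (40%). Tra2a, an SR-like activator, had 0.71 ± 0.08 with shRNA-Ctrl, and its relative Tra2b had 0.49 ± 0.07 with shRNA-Ctrl in the authors' deposited tables and 0.47 ± 0.09 with shRNA-cFos. The difference of responses passed for 3 of these 15 genes, or 20% against 23.8% of all genes tested. For the 10 kinases and partners it passed for 0 (normal test; 0 at an unadjusted p under 0.05). The response was higher with shRNA-cFos for Rsrc1 (0.51 ± 0.14) and Srrm3 (0.35 ± 0.13) and lower for Tra2a (-0.48 ± 0.12), as computed from the authors' deposited tables. Srrm4, a neuronal activator of microexons, rose with both hairpins, and the authors' deposited tables give 0.24 ± 0.09 with shRNA-Ctrl and 0.44 ± 0.12 with shRNA-cFos. Neither list had a lower call with a hairpin, and neither had any call with overexpression (DESeq2; 1 higher and 0 lower in each at an unadjusted p under 0.05).

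Of 30 core spliceosome genes shRNA-Ctrl gave 6 higher and 0 lower, shRNA-cFos 2 higher and 2 lower, and overexpression 0 higher and 1 lower, with medians of -0.01, -0.03 and -0.01. The shares called were 20% with shRNA-Ctrl, 13.3% with shRNA-cFos and 3.33% with overexpression, beside 33%, 28.1% and 13% of all genes, and the lists were not tested against each other. The largest value was that of Sf3b1, which recognises the branch point, for which the authors' deposited tables give 0.79 ± 0.07 with shRNA-Ctrl and 0.65 ± 0.07 with shRNA-cFos. Of 39 other RNA-binding proteins known in neurons 11 were higher and 6 lower with shRNA-Ctrl, 13 higher and 2 lower with shRNA-cFos, and 3 higher and 2 lower with overexpression. In the authors' deposited tables Cpeb4, a regulator of cytoplasmic polyadenylation, led at 0.86 ± 0.10 with shRNA-Ctrl and 0.81 ± 0.09 with shRNA-cFos. The difference of responses passed for 8 of these 39 higher with shRNA-cFos and for 3 lower, or 28.2% against 23.8% of all genes. The 3 largest were the cold-induced genes Cirbp (0.79 ± 0.17) and Rbm3 (0.75 ± 0.19), and Zfp36l1 (-0.78 ± 0.19), whose protein promotes decay of AU-rich mRNA, as computed from the authors' deposited tables.

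The promoters of members that moved are shown because c-Fos acts at AP-1 sites (TGANTCA) and activity also acts through cAMP response elements (TGACGTCA, with the core TGACG). Each window holds 250 bases before and 50 after a RefSeq start in GRCm38.p6, a later build than the mm9 of the deposited tables. Capitals mark matches on either strand to these 3 motifs, of which TGACG lies within the full element. Srsf7 and Srsf5 are the SR genes with the largest rise, Ptbp1 and Celf6 rose with shRNA-Ctrl and differed between the hairpins, and Rbfox3 fell. The windows are chr17:80207256-80207555 (minus strand) for Srsf7, chr12:80945249-80945548 (plus strand) for Srsf5, chr10:79854182-79854481 (plus strand) for Ptbp1, chr9:59578087-59578386 (plus strand) for Celf6 and chr11:118760992-118761291 (minus strand) for Rbfox3.
Srsf7: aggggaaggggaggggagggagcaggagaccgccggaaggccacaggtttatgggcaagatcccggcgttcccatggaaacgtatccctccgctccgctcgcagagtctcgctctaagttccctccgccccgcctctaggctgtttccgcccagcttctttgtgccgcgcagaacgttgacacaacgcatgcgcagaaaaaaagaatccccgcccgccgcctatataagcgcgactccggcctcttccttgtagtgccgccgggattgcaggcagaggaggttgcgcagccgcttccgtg
Srsf5: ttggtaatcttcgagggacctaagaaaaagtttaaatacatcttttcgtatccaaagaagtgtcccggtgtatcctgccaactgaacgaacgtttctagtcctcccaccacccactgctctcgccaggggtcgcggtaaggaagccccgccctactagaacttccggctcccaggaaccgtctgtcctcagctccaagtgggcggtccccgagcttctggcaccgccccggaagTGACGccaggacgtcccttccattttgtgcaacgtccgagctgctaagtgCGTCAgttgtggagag
Ptbp1: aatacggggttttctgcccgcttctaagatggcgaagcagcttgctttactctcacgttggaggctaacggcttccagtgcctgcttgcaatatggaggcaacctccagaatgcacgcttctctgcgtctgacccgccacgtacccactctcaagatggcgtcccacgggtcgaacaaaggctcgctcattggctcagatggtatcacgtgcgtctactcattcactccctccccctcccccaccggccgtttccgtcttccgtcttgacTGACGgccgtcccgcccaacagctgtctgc
Celf6: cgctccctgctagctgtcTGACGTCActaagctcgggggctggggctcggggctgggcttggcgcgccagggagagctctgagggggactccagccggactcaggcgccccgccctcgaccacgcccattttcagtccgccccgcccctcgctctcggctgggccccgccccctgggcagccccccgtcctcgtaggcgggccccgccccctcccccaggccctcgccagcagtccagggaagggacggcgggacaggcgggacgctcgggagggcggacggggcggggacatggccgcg
Rbfox3: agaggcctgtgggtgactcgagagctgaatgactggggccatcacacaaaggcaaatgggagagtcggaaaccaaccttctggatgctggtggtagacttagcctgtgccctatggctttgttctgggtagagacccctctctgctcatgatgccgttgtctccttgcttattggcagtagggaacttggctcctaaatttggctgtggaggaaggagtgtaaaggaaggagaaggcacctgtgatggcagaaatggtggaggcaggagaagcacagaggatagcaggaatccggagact

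Srsf5 held 2 matches to TGACG and Ptbp1 held 1, Celf6 held a full TGACGTCA, and Srsf7 and Rbfox3 held no match in these windows. Celf6 has 2 windows, and the printed one was picked by its number of matches. A window was found for 47 of the 52 members, some with several starts. TGACG was present for 25 of these 47 genes (53.2%), among them 7 of 11 SR genes and 11 of 18 hnRNP genes, against 23% of all 27025 genes with a promoter and 33.3% of those tested with shRNA-Ctrl. The members have more starts per gene, and counted by promoter the shares were 44% of 84 member promoters and 28.8% of 14811 promoters of tested genes. The full element was present in Celf3 and Celf6 (4.26%, against 2.03% of all genes and 3.37% of those tested), and TGANTCA in Celf2, Celf5 and Hnrnpa1 (6.38%, against 8.97% of all genes and 6.36% of those tested), so neither share stands far from that of tested genes. These matches describe letters in a window and do not show binding.

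The families differ in gene size, a feature the names did not use. The RefSeq span had a median of 7.29 kb for SR genes, 12.95 kb for hnRNP genes and 422 kb for Rbfox genes, with Rbfox1 the longest at 1530 kb. Across the 51 members the Spearman correlation between span and log2 fold change was -0.36 with shRNA-Ctrl, -0.10 with shRNA-cFos and -0.41 with overexpression. Over all matched genes tested it was 0.03, 0.18 and -0.04. The points of a table share its libraries, and span goes with family here.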

How the data were processed

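RNA-seq libraries were grouped by their sample titles into 6 groups of 3. The tools named per the submitters' processing notes are TopHat2 and DESeq2, and the build is mm9. No source used here gives the counting tool, annotation, strand setting or versions. Per the file headers the authors deposited a mean normalized count per gene (a signal value, counts divided by size factors), a log2 fold change with its standard error, a Wald score, a p-value and an adjusted p-value. The standard errors have the ceiling of log2 fold changes shrunken toward 0 by a normal prior, and the deposited values were treated as such. Depth per library is unknown.

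Tables were read with Python 3.11.15 and pandas 2.3.3. For overexpression, 27 rows whose names had become dates were dropped. Genes were called at an adjusted p under 0.05. The difference of E1 responses was computed from fold changes and errors over all genes tested in both tables, with scipy 1.17.1. It was also run on simulated data, but no outcome of that run is given here, so it does not vouch for the error rate. Implied levels assume equal groups and remove a normal prior of SD 0.59, 0.53 and 0.41. The p-values set each fold change against its standard error, which rests on 3 animals a group. Exons of 7 members overlap another gene of the tables by at least 5% in GENCODE M21 (Srsf2, Srsf4, Hnrnpab, Hnrnpk, Hnrnpm, Hnrnpu and Ptbp1), and with strand unknown their counts may hold reads of both. Genes not named in the tables also overlap exons of Nova2 (31.7%), Ptbp1 (9.22%), Celf5 (8.14%), Celf2 (7.58%), Hnrnpd (5.24%) and Hnrnpul2 (5.06%). Counts of these members may hold such reads too. The members and lists were chosen with earlier results of these data known. All members were named, hnRNP genes where they passed in a comparison, and from each list at most the 4 largest changes. Alternatives were other thresholds, filters, centring and removal of the prior.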

Additional observations from a re-analysis of the deposited data

Results flagged for a closer look

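The E1 responses of 20 members differed between the hairpins by a test of the difference itself. That is 39.2% of the members tested, against 23.8% of all genes, and among abundant genes 40% of the members against 36% of all genes. The difference of log2 fold changes, shRNA-cFos minus shRNA-Ctrl and computed from the authors' deposited tables, was 0.77 for Rbfox1, 0.72 for Rbfox3, 0.49 for Nova1 and 0.36 for Nova2. It was 0.58 for Celf2, 0.56 for Celf5, 0.43 for Celf3, 0.42 for Celf4 and 0.51 for Mbnl2. Among hnRNP genes it was 0.48 for Hnrnpdl, 0.40 for Hnrnpul2, 0.36 for Hnrnpr, 0.35 for Hnrnpd, 0.30 for Hnrnpl, 0.29 for Hnrnpab and 0.27 for Hnrnpul1. It was negative for Hnrnph3 (-0.56), Celf6 (-0.45), Ptbp1 (-0.43) and Hnrnpf (-0.39).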

How the results depend on the processing

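Values per library were not analysed here, so leaving out a replicate was not run. No paired analysis was possible because the tables hold comparisons and no column per library. Counts over all members stayed within 1.5 times of the reported ones under the alternatives run, except for those given next, and some counts by family moved more. For overexpression, members higher numbered 1 in place of 2 at an adjusted p of 0.01, with a fold minimum of 1.2 and without a filter on mean counts, as Srsf6 was lost. For the difference of the E1 responses, a threshold of 0.01 left 11 members, 8 of them with a higher response, through the stricter threshold itself. By family, a fold minimum of 1.2 took SR genes higher with shRNA-Ctrl to 5 in place of 8, and with shRNA-cFos SR genes to 3 in place of 5, hnRNP genes to 8 in place of 14 and Rbfox genes to 1 in place of 2. A threshold of 0.01 gave 3 SR genes, 1 Rbfox gene and 1 Elavl gene higher with shRNA-cFos, and for the difference 2 hnRNP genes higher and 1 lower, 1 Nova gene and 0 Mbnl genes higher. With overexpression the SR count fell to 0 with the loss of Srsf6, and the Celf count to 0 with the loss of Celf4 at 0.01 or 1.2-fold. Without the filter 2 members, Hnrnpr and Srsf9, were lost with shRNA-cFos. Signs turned only for values near 0 that had not passed: after centring on the median of all genes, Srsf12 with shRNA-Ctrl (-0.0022), Hnrnpdl (0.0006) and Hnrnpu (0.0) with overexpression and the difference of Srsf5 (0.0093), which was also 0.0037 with the prior removed. Centring also brought the difference of Rbfox2 past the threshold (0.28). The median over all genes tested was 0.01, -0.003 and -0.01 in the 3 tables.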
